A study of Mus musculus with 8 samples.

Results

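The cytosolic ribosomal protein genes encode the proteins that, with ribosomal RNA, build the small and the large subunit of the ribosome outside mitochondria. Their members were taken by symbol: array rows with exactly 1 platform gene symbol that reads Rpl or Rps and a number (with a final a, l or x allowed), Rplp0, Rplp1, Rplp2 or Rpsa, without the Rps6k kinases. This gave 59 genes of 19310 and 178 rows of 20748. Of the 59 genes, 22 had 1 row and 37 had several, up to 10 for Rpl23a. Each gene is given by its brightest row, the one with the highest mean over the 8 arrays, and its other rows serve as checks. A further 179 rows carried a ribosomal protein symbol beside other symbols and are not counted among the members. They hold 16 further ribosomal protein symbols that no 1-symbol row gave.

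The knockout-labelled group was 4 samples of epididymal white adipose tissue, the visceral fat pad beside the epididymis, from mice with a knockout of Rev-erb alpha. Rev-erb alpha, encoded by Nr1d1, is a nuclear receptor that represses transcription in the circadian clock. The WT group was 4 samples of the same tissue from wild-type mice. All were C57BL/6 males aged 12 to 15 weeks on a standard diet with 12 h of light and 12 h of dark, and tissue was taken at Zeitgeber time 10, in hours after lights on. The labels do not give the allele, and they do not say whether the replicates came from separate mice, so p-values measure only the spread between these samples. In bulk tissue, fewer cells of a type and less RNA per cell cannot be told apart.

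RNA was measured on a whole-transcript Affymetrix array, and the deposited values are on a log2 scale. Medians over all 1-symbol rows were 5.92 to 5.94 log2 in the knockout-labelled arrays and 5.95 to 5.98 in the WT arrays, ranges that do not overlap. Correlations across rows, which are not replicates, were 0.994 to 0.997 among the knockout-labelled arrays, 0.994 to 0.996 among the WT arrays and 0.989 to 0.994 across the groups. The Nr1d1 row did not part the groups: it read 9.56, 9.28, 8.90 and 8.80 log2 in the knockout-labelled arrays, against 9.47, 9.11, 9.18 and 9.83 in the WT arrays (difference -0.26, SE 0.19, limma adjusted p = 0.479). Where its probes lie relative to the deleted part is not known here, so this row is no check of the labels, and every direction below is that of the arrays labelled as knockout. Of the 16 listed mature adipocyte markers 15 had a row, and their summed level was 176.4 to 176.8 log2 in the knockout-labelled arrays and 175.8 to 177.6 in the WT arrays.

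Ribosomal proteins are made in near-equal amounts, and their messenger RNAs belong to the TOP class: they begin with a run of pyrimidines through which the kinase mTORC1 and the RNA-binding protein Larp1 set how strongly they are translated. Their transcripts are among the most abundant of most cells and are often used as steady references. Their control is therefore partly in translation, which an array of RNA levels does not measure. The genome also holds many processed copies of these genes, so a probe designed for one of them can read RNA of another.

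The ribosomal protein transcripts lay slightly lower in the knockout-labelled arrays, and nearly all of these differences did not pass the test. Of the 59 genes, 45 had a difference (knockout-labelled mean minus WT mean) below 0 and 14 above 0, with a median of -0.08 log2. Over all 20748 rows the median was -0.01, with 52.0% of rows below 0. Centring each array on its median adds 0.02 log2 to every difference, so negative values of a smaller size turn positive. After this centring 40 of the 59 genes were below 0. In limma's fit over all rows, 1 member passed at a Benjamini-Hochberg adjusted p under 0.05: Rpsa, which was lower. This is 1.69% of the members, against 7.4% of all rows called in either direction, 3.59% lower and 3.81% higher. Lower calls were 48.5% of all called rows, and 37.5% after centring each array on its median. The count of called members turned on the setting: it was 7, all lower, after quantile normalization, without the dimmest 33.3% of rows, and with limma's trend and robust options, and 0 without knockout-labelled replicate 4. Rpsa was among the 7 each time, with Rpl23, Rpl36a, Rps14, Rps21 and Rps28. After quantile normalization 1540 of the 20748 rows were called, and 48.3% of these calls were lower. Lower calls were 51.0% of all called rows without the dimmest rows and 49.2% with the trend and robust options.

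At an unadjusted p under 0.05 the picture differed. There were 18 members, 30.5%, against 21.9% of all rows. Of these, 17 were lower, 28.8% of the members against 11.7% of all rows, and 1, Rps4l, was higher. The 4 knockout-labelled arrays did not overlap the 4 WT arrays for 13 members, 22.0%, against 15.3% of all rows. Of the 13 members 12 were lower in the knockout-labelled arrays, and of the 3183 such rows among all rows 1693 were lower. Among rows at 8 log2 or more the order of these shares turned: 15 of 44 members, 34.1%, had an unadjusted p under 0.05, against 41.3% of the 3218 rows, and 25.0% of the members had groups apart, against 33.6%. All 15 were lower, 34.1% of these members against 18.6% of the rows. The bright members with groups apart were 11, all lower, and of the 1082 bright rows with groups apart 487 were lower. Members share arrays and can share probe targets, so these counts are not independent, and they describe the list without a test of it.

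The fit set narrow limits on most members. The median half-width of the 95% confidence interval was 0.14 log2, and for 57 of the 59 genes the whole interval lay within 0.5 log2 of no difference. The other 2 were Rpsa and Rps13. The members were bright, with a median level of 9.49 log2 against 5.94 for all rows. The 44 members at 8 log2 or more had a median difference of -0.09, with 37 below 0, whereas the 3218 rows above that level had a median of 0.01 and 47.4% below 0. The members were still the brighter of these sets, with a median level of 9.97 against 8.78 log2. In these bright rows 1 of the 44 members was called, 2.27%, against 18.3% of all such rows.

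**Figure D1:**
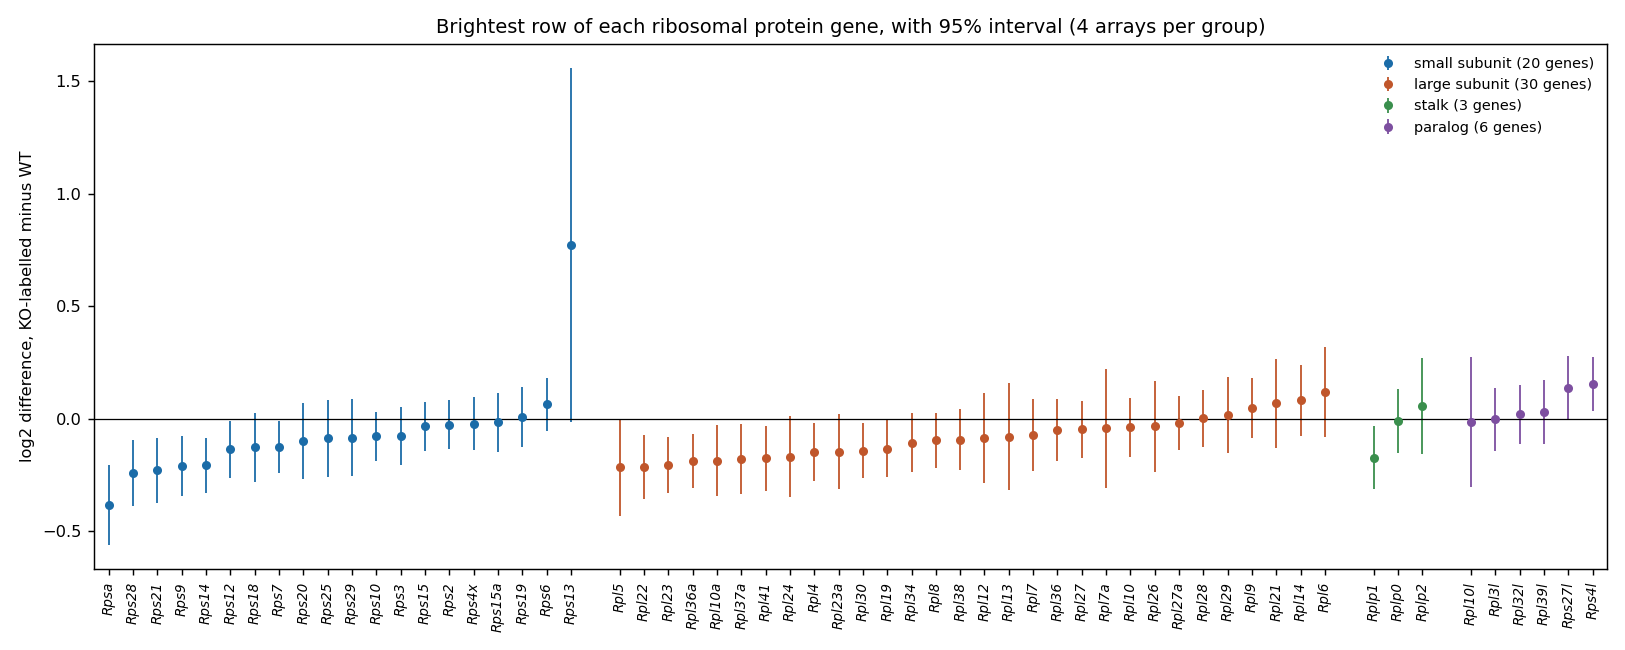
Difference in log2 level, knockout-labelled mean minus WT mean, for each of the 59 genes by its brightest row, with 95% confidence intervals from limma (n = 4 arrays per group) and genes grouped by subunit. Of the 59 points 45 lie below 0, most intervals include 0, and Rps13 at 0.77 stands highest with the widest interval.

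Of 20 small subunit genes 17 were below 0, with a median of -0.08 and 1 called. Of 30 large subunit genes 24 were below 0, with a median of -0.09 and none called at the adjusted threshold. Of all rows 52.0% were below 0 and 7.4% were called. An unadjusted p under 0.05 was found for 7 small subunit genes, 35%, and 9 large subunit genes, 30%. The same held for 21.9% of all rows and 41.3% of rows at 8 log2 or more. All 7 and all 9 were lower, while lower rows at this threshold were 11.7% of all rows and 18.6% of the brighter ones. The 3 stalk genes had a median of -0.01, and the 6 paralogs, genes ending in l that copy a standard ribosomal protein, had a median of 0.03 with 2 below 0. No test of one group against another was made.

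The sequence around the start of these genes, which the rule did not use, was searched for pyrimidine runs. RefSeq's table of GRCm38.p6 held a promoter window, 250 bases before to 50 after the annotated start, for 47 of the 59 genes. The sequences below are 30 bases on the coding strand around the longest run of C and T that reaches within 50 bases of the start, which the capitals mark. They are shown for the members with the smallest p values for which the table gave a window, and for Rps27l, a paralog with a difference above 0, and Rps6, the brightest member.
Rpsa: gagcggaagTTCTCCCTTTTTgcttagcct
Rps21: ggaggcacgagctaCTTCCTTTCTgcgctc
Rps9: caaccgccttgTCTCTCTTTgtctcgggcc
Rpl36a: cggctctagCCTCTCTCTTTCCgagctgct
Rpl22: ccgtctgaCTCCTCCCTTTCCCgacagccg
Rps6: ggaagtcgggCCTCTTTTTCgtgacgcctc
Rps27l: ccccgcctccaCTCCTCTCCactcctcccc
Rpl23: gagtgggcggggCCTCCCgttcatatccca
Rps28: tctgtcccgaggaTTCCTgggtaccgcgtg

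On GRCm38.p6 these lie at chr9:120127702-120127731 on the plus strand for Rpsa, chr2:180257399-180257428 plus for Rps21 and chr7:3704024-3704053 plus for Rps9. Rpl36a is at chrX:134585672-134585701 plus, Rpl22 at chr4:152325679-152325708 plus and Rps6 at chr4:86857349-86857378 minus. Rps27l is at chr9:66946053-66946082 plus, Rpl23 at chr11:97782404-97782433 minus and Rps28 at chr17:33824567-33824596 minus. The run was 12 bases long in Rpsa, 10 in Rps21, 9 in Rps9, 13 in Rpl36a, 14 in Rpl22, 10 in Rps6 and 9 in Rps27l. In Rpl23 and Rps28, whose differences were close in size to that of Rps21, the longest run in the window was 6 and 5 bases. Most runs were not at the annotated start itself: counted from it, the run began at base -55 in Rpsa, -39 in Rpl22, -22 in Rps27l, -21 in Rps28, -6 in Rps9 and -1 in Rps6, and at base 19 in Rpl23, 28 in Rpl36a and 35 in Rps21.

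A run of at least 8 pyrimidines was found in 39 of the 47 genes, 83.0%, against 41.4% of the 27025 genes in the table, and the median longest run was 10 bases against 7. Of the 39 members with such a run 29 were below 0, with a median of -0.08, and of the 8 without it 7 were below 0, with a median of -0.05, a difference that was not tested. Short motifs were searched on both strands of the 300-base windows. The ETS core CCGGAAG was in 18 of 47 members, 38.3%, against 9.93% of all genes. The E-box CACGTG was in 5, 10.6% against 8.09%, and the YY1 motif AAGATGGC in 2, 4.26% against 3.19%. The nuclear receptor half-site AGGTCA was in 6, 12.8% against 18.1%, and the RORE, the longer element that Rev-erb alpha binds and whose end overlaps that half-site, was in 0 of 47, against 0.459% of all genes. These are matches of letters in a short window, and nothing follows from them about binding.

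Rpsa, a small subunit protein also known as a laminin receptor precursor, was lower in the knockout-labelled arrays. Its brightest row, 10373569, read 9.80, 9.78, 9.58 and 9.62 log2 in knockout-labelled replicates 1 to 4, against 10.16, 9.95, 10.23 and 9.97 in WT replicates 1 to 4. All 4 knockout-labelled values lay below all 4 WT values. The means were 9.69 ± 0.11 and 10.08 ± 0.14 (SD, n = 4 each), a difference of -0.38 (SE 0.08, limma adjusted p = 0.0177), which is 1.30-fold higher in WT. The call was lost without knockout-labelled replicate 4 (-0.36, adjusted p = 0.0584) and without WT replicate 3 (-0.33, adjusted p = 0.0511).

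The other Rpsa rows did not all follow. Row 10590253 read 8.68, 8.82, 8.68 and 8.74 log2 in the knockout-labelled arrays, against 8.99, 8.96, 9.06 and 8.95 in the WT arrays (-0.26, adjusted p = 0.0170), and row 10502787 gave -0.29 (adjusted p = 0.00931). These 2 rows also kept the groups apart. Row 10385034, at 7.23 to 7.67 log2 in the knockout-labelled and 7.42 to 7.59 in the WT arrays, gave -0.02. The dimmest row, 10437934, went the other way, with 0.17 (adjusted p = 0.132). With the mean of all 5 rows Rpsa gave -0.16 and did not pass (adjusted p = 0.0816).

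**Figure D2:**
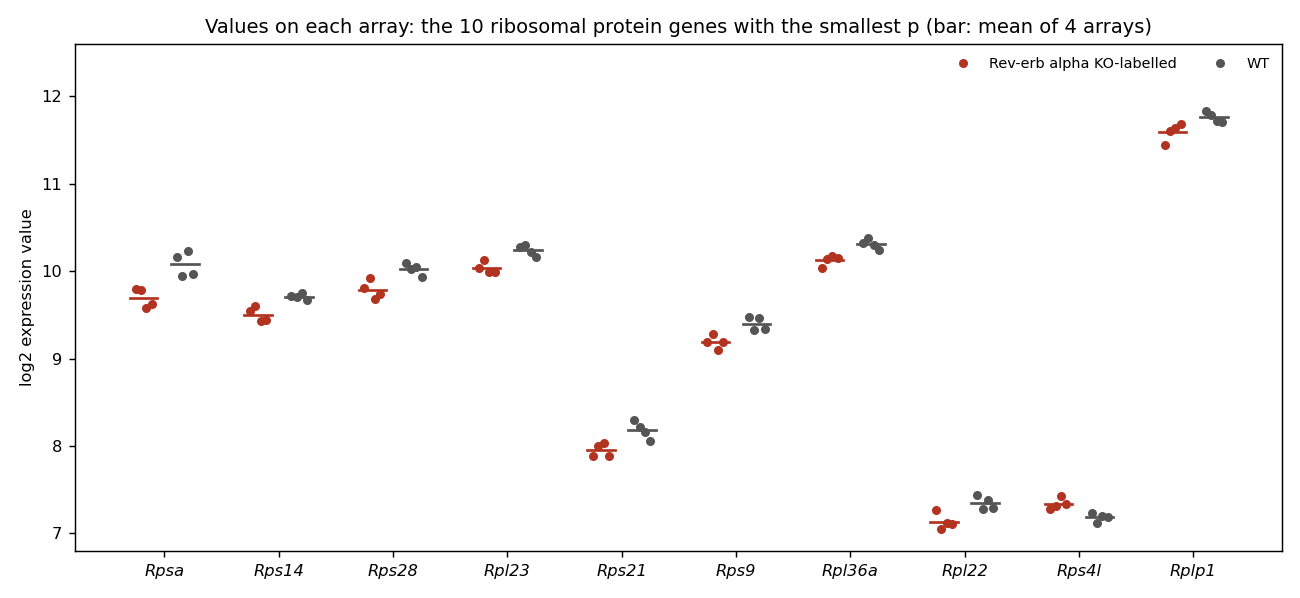
Log2 level on each array, knockout-labelled left of WT, for the brightest rows of the 10 members with the smallest p values; points are arrays and bars group means (n = 4 each). The groups overlap in none of the 10 genes, and Rps4l alone is higher in the knockout-labelled arrays.

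Among the other small subunit genes, 4 came close to the threshold without passing it. Rps14, a platform protein near the exit of the messenger RNA, read 9.55, 9.60, 9.43 and 9.45 log2 in the knockout-labelled arrays, against 9.71, 9.71, 9.75 and 9.68 in the WT arrays (-0.21, SE 0.06, adjusted p = 0.0506). Its other row, 10456001, had 8.63, 8.56, 8.47 and 8.53 log2 in the knockout-labelled arrays, against 8.95, 8.88, 8.95 and 8.75 in the WT arrays. That row passed, at -0.34 (SE 0.06, adjusted p = 0.00988), so the choice of row decides the call for Rps14.

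Rps21, which in yeast binds the counterpart of Rpsa, was at 7.892, 8.001, 8.029 and 7.888 log2 in the knockout-labelled arrays, against 8.295, 8.212, 8.161 and 8.054 in the WT arrays (-0.23, SE 0.07, adjusted p = 0.0613). A dimmer Rps21 row, 10439237, gave the lowest adjusted p among all 178 rows, with 6.44, 6.61, 6.41 and 6.65 log2 in the knockout-labelled arrays, against 7.16, 7.07, 7.20 and 6.87 in the WT arrays (-0.55, SE 0.09, adjusted p = 0.00415). Both rows kept the groups apart, and their 95% confidence intervals, -0.37 to -0.08 and -0.74 to -0.36, overlapped slightly.

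Rps28, a small subunit protein at the exit of the messenger RNA channel, read 9.80, 9.92, 9.68 and 9.74 log2 in the knockout-labelled arrays, against 10.09, 10.03, 10.05 and 9.93 in the WT arrays (-0.24, SE 0.07, adjusted p = 0.0519). Of its 4 other rows 3 were also below 0, at -0.46, -0.24 and -0.24, and 1 of these, 10516479, passed (adjusted p = 0.0452). Row 10526215 gave 0.03. Rps9, which lies near the decoding site, was at 9.19, 9.28, 9.10 and 9.19 log2 in the knockout-labelled arrays, against 9.47, 9.32, 9.46 and 9.34 in the WT arrays (-0.21, SE 0.06, adjusted p = 0.0640). Its groups did not overlap on the brightest row, but its second row gave -0.10 (adjusted p = 0.540) with overlapping groups.

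None of the large subunit genes passed. Rpl23, which can bind the p53 regulator Mdm2, read 10.04, 10.13, 9.99 and 9.99 log2 in the knockout-labelled arrays, against 10.28, 10.30, 10.22 and 10.16 in the WT arrays (-0.20, SE 0.06, adjusted p = 0.0557). Its second row gave -0.33 (adjusted p = 0.0986). Rpl36a had 10.03, 10.14, 10.17 and 10.15 log2 in the knockout-labelled arrays, against 10.33, 10.38, 10.30 and 10.25 in the WT arrays (-0.19, SE 0.06, adjusted p = 0.0662). Its dimmer row, 10421972, overlapped and gave 0.04 (adjusted p = 0.853), and with both rows averaged Rpl36a gave -0.07 (adjusted p = 0.483). Rpl22, an RNA-binding protein needed for development of T cells in mice, read 7.27, 7.05, 7.12 and 7.11 log2 in the knockout-labelled arrays, against 7.44, 7.28, 7.39 and 7.29 in the WT arrays (-0.21, SE 0.06, adjusted p = 0.0751). In Rpl22 the gap between the groups was narrow, with 7.27 and 7.28 as the nearest values.

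Rpl5, which with Rpl11 also binds Mdm2, was among the 5 differences furthest below 0 (-0.22, SE 0.10, adjusted p = 0.229). Its knockout-labelled values of 10.80, 10.92, 10.50 and 10.49 log2 overlapped the WT values of 10.97, 10.87, 10.91 and 10.82. Rpl24, the gene mutated in the mouse strain Belly spot and tail, gave -0.17 (adjusted p = 0.263), with 10.30, 10.36, 10.28 and 10.31 log2 in the knockout-labelled arrays, against 10.57, 10.56, 10.22 and 10.57 in the WT arrays. WT replicate 3 alone made the groups overlap, and without it the difference was -0.26 and passed (adjusted p = 0.0246).

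Of the stalk proteins, which recruit elongation factors to the ribosome, Rplp1 read 11.44, 11.60, 11.64 and 11.68 log2 in the knockout-labelled arrays, against 11.83, 11.79, 11.71 and 11.71 in the WT arrays (-0.17, SE 0.06, adjusted p = 0.142). Its second row gave -0.18 (adjusted p = 0.116). Rplp0, the base of the stalk and a common reference gene in fat, had 11.23, 11.33, 11.43 and 11.37 log2 in the knockout-labelled arrays, against 11.48, 11.32, 11.28 and 11.32 in the WT arrays. Its difference was -0.01, and 0.01 after median centring, with a 95% confidence interval of -0.15 to 0.13 as deposited. Rplp2 was dimmer, at 5.95 to 6.24 log2 in the knockout-labelled and 5.79 to 6.22 in the WT arrays (0.06, adjusted p = 0.792).

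Among the paralogs, both with a difference above 0.1 lay higher in the knockout-labelled arrays, without passing. Rps4l, a gene like Rps4x, read 7.28, 7.31, 7.43 and 7.34 log2 in the knockout-labelled arrays, against 7.23, 7.12, 7.20 and 7.18 in the WT arrays (0.15, SE 0.05, adjusted p = 0.119), without overlap. Rps4x itself gave -0.02 (adjusted p = 0.867). Rps27l, a paralog of Rps27 that p53 induces, was at 9.43, 9.50, 9.60 and 9.59 log2 in the knockout-labelled arrays, against 9.39, 9.49, 9.27 and 9.42 in the WT arrays (0.14, SE 0.07, adjusted p = 0.247), and its groups overlapped.

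The remaining paralogs were near 0, and all but Rpl32l were dim. Rpl3l, known from muscle, gave 0.00, with 3.98 to 4.09 log2 in the knockout-labelled and 3.93 to 4.19 in the WT arrays. Rpl10l, a retrogene copy of Rpl10 known from testis, gave -0.01, with 4.52 to 4.88 and 4.30 to 4.93. Rpl39l, also known from testis, gave 0.03, with 3.19 to 3.41 and 3.23 to 3.38. Rpl32l was brighter, at 8.08 to 8.19 log2 in the knockout-labelled and 7.99 to 8.21 in the WT arrays, and gave 0.02. Rpl10, which joins the large subunit late in its assembly and is the counterpart of Rpl10l, was bright at 11.66 ± 0.04 and 11.70 ± 0.10 log2 and gave -0.04 (adjusted p = 0.775).

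The 5 brightest members, Rps6, Rpl9, Rpl36, Rps2 and Rpl10, gave differences between -0.05 and 0.07. Rps6, the target of the S6 kinases below mTORC1, read 13.09, 13.03, 13.09 and 12.94 log2 in the knockout-labelled arrays, against 12.95, 13.01, 12.93 and 12.98 in the WT arrays (0.07, SE 0.05, adjusted p = 0.536). After quantile normalization its sign turned, at -0.01. Rpl9 gave 0.05, Rpl36 -0.05 and Rps2, which lies at the entry of the messenger RNA channel, -0.02, with adjusted p values of 0.700, 0.723 and 0.830. Among the dimmest, Rpl21 at 2.53 log2 gave 0.07 and Rpl7a at 5.17 log2 gave -0.04. The Rpl21 level was close to the lowest value on any array, 2.09 log2. The placement by row number described below put both of these rows elsewhere than at their own gene. Levels of different rows come from different probes and cannot be ranked as amounts of RNA.

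Rps13 stood out by spread. Its brightest row, 10565434, read 8.60, 8.59, 8.25 and 7.85 log2 in the knockout-labelled arrays, against 7.28, 8.61, 6.56 and 7.75 in the WT arrays (0.77, SE 0.36, adjusted p = 0.238). WT replicate 2 lay with the knockout-labelled arrays, and without it the difference was 1.13 and passed (adjusted p = 0.0451). The other Rps13 rows gave -0.01 and -0.07, with group SDs of at most 0.10. A second row of Rpl38, a protein that in mice governs translation of Hox messenger RNAs, had the same shape: row 10509560 read 11.20, 11.12, 10.88 and 10.81 log2 in the knockout-labelled arrays, against 9.89, 11.21, 8.91 and 8.84 in the WT arrays (1.29, SE 0.43, adjusted p = 0.101). WT replicate 2 was again high, while the brightest Rpl38 row gave -0.09.

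Rows of the same gene disagreed in sign for 21 of the 37 genes with several rows. Over all 178 rows 120 were below 0 and 7 passed, all lower, which is 3.93% against 7.4% of all rows in either direction and 3.59% lower. The 7 were 3 rows of Rpsa and 1 each of Rps14, Rps21, Rps28 and Rpl23a. Of the 179 uncounted rows with several symbols 111 were below 0, with a median of -0.02. Of the 20748 rows with 1 symbol 52.0% were below 0. In a fit over every row of the array 6 of these 179 were called, 3 lower and 3 higher, beside 7.4% of the rows with 1 symbol in the main fit. Rpl23a, which lies at the mouth of the exit tunnel, had 10 rows between -0.37 and 0.14. Its row 10371269 had 8.99, 9.11, 8.83 and 9.06 log2 in the knockout-labelled arrays, against 9.38, 9.35, 9.38 and 9.38 in the WT arrays (-0.37, adjusted p = 0.00707), while its brightest row gave -0.15 (adjusted p = 0.294). The most negative difference, -1.11, was in Rpl36 row 10378783, where knockout-labelled values of 3.47 to 5.70 log2 overlapped WT values of 4.95 to 6.62 (adjusted p = 0.222).

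**Figure D3:**
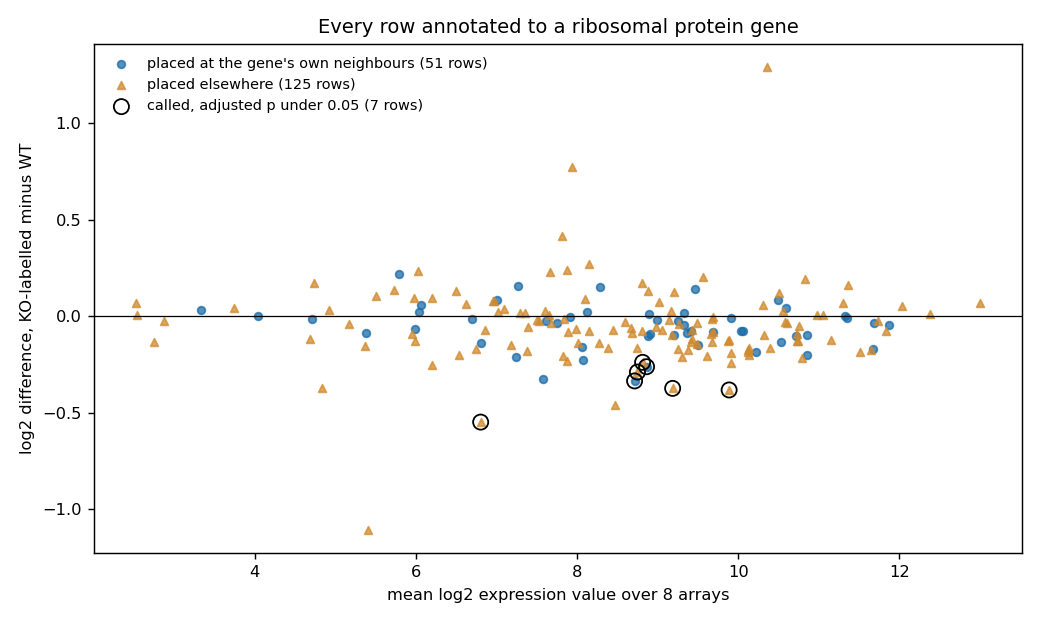
Difference in log2 level, knockout-labelled minus WT, of the member rows against their mean log2 level over the 8 arrays; circles are the 51 rows placed at their own gene by row number, triangles the 125 placed elsewhere, and rings the 7 called at an adjusted p under 0.05 (2 unplaced rows are not drawn as points). All 7 rings lie below 0, and the rows furthest from 0 are placed elsewhere.

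Row numbers of this array largely follow position in the genome, and each row was placed by its neighbours. A row was placed by the 5 numbered rows on each side when at least 80% of them shared a chromosome. In a check on 2000 genes with 1 row, 99.2% were placed at their own gene. Of the 178 ribosomal protein rows, 51 lay at their own gene, 125 lay elsewhere and 2 could not be placed. Of the 33 genes with several rows that include one at the gene itself, the brightest row was that one in 12. For Rpsa, a gene of chromosome 9, the brightest row had neighbours on chromosome 10, and row 10590253 lay at the gene. The brightest rows of Rps9, Rps14, Rps28 and Rpl23 were also placed elsewhere, as was the called Rps21 row 10439237. No Rps28 row lay at its gene, and the Rps9 row at the gene was the second one, with -0.10. Of the called rows 5 were placed elsewhere, 4.0% of the 125, and 2 at the gene, 3.92% of the 51, against 3.59% of all rows called lower. Which transcripts a row placed elsewhere reads was not tested.

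With the row at the gene itself in place of the brightest, a choice made after seeing the data, 51 genes could be read. Of these 37 were below 0, with a median of -0.05, and 2 passed, both lower: Rpsa (-0.26, adjusted p = 0.0170) and Rps14 (-0.34, adjusted p = 0.00988). This is 3.92% of the 51, against 3.59% of all rows called lower and 7.4% called in either direction. The direction turned for Rpl19, Rpl23a, Rpl24 and Rpl27a, which were above 0 at the gene itself, by 0.22, 0.02, 0.02 and 0.15, and for Rpl6 and Rps13, which were below 0 there, by -0.03 and -0.07.

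Per array, the members did not part the groups cleanly. Each array's median deviation from the members' own means was -0.08, -0.005, -0.02 and -0.04 log2 in knockout-labelled replicates 1 to 4, against 0.10, 0.06, -0.03 and 0.03 in WT replicates 1 to 4. WT replicate 3 lay among the knockout-labelled arrays. In the knockout-labelled arrays 46, 32, 31 and 40 of the 59 genes were below their own mean, and in the WT arrays 10, 11, 35 and 21 were. WT replicate 1 held the highest value of 27 genes, and knockout-labelled replicate 1 the lowest value of 17. Leaving out each array in turn left 41 to 50 genes below 0, and centring each array on its median left 40.

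**Figure D4:**
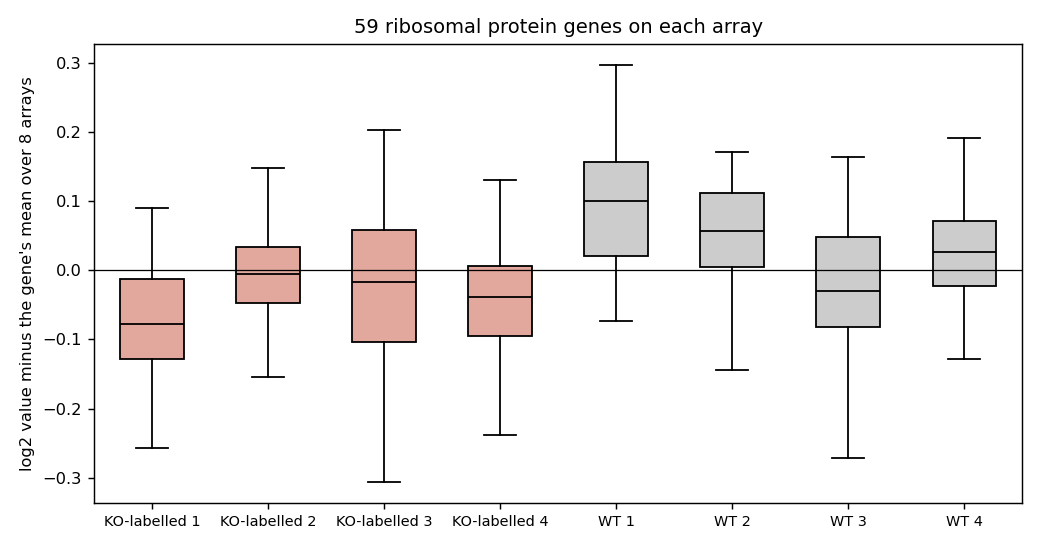
Deviation of each of the 59 genes from its own mean over the 8 arrays, in log2, per array, knockout-labelled arrays left of WT arrays; boxes span the quartiles with the median as a line, whiskers reach the furthest gene within 1.5 box lengths, and genes beyond are not drawn. Medians run from -0.08 to -0.005 in the knockout-labelled arrays and from -0.03 to 0.10 in the WT arrays, and WT replicate 3 sits with the knockout-labelled arrays.

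Other genes of translation were described with lists of their own. Of 77 mitochondrial ribosomal proteins, which build the separate ribosome of mitochondria, 47 were below 0, with a median of -0.03. Mrps6 was higher, with 9.60, 9.29, 9.54 and 9.53 log2 in the knockout-labelled arrays, against 8.87, 8.78, 9.02 and 8.84 in the WT arrays (0.61, SE 0.08, adjusted p = 0.00130). Mrpl50 (0.25) and Mrpl10 (0.23) were also higher, and Mrpl51 was lower (-0.36, adjusted p = 0.00646). The mitochondrial list thus had 4 calls, 5.19% against 7.4% of all rows. Of these 3 were higher, 3.90% of the list against 3.81% of all rows, and 1 was lower, 1.30% against 3.59%. At an unadjusted p under 0.05 in limma's fit the mitochondrial list had 22 genes, 28.6% against 21.9% of all rows, 14 lower and 8 higher. The cytosolic list had 1 call at the adjusted threshold, lower. The difference between the lists was not tested.

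Of 55 genes of ribosome biogenesis 3 passed, all lower, 5.45% against 3.59% of all rows called lower and 7.4% called in either direction, and the median was -0.01. Nol6, which takes part in processing the RNA of the small subunit, had 8.58, 8.53, 8.73 and 8.61 log2 in the knockout-labelled arrays, against 9.05, 9.16, 9.26 and 9.09 in the WT arrays (-0.53, SE 0.07, adjusted p = 0.00117). Ncl, encoding nucleolin of the nucleolus, was lower by -0.29 (adjusted p = 0.0118), and Rrp1b, another nucleolar gene, by -0.25 (adjusted p = 0.0363). None of the 18 other TOP messenger RNAs passed, and the median was -0.04. Of the 18, 6 had an unadjusted p under 0.05, 4 lower and 2 higher. This is 33.3%, against 21.9% of all rows and 41.3% of all rows at 8 log2 or more. The smallest p values there were of the initiation factor genes Eif3l (-0.18), Eif3m (-0.20) and Eif4b (-0.20) and of Pabpc1, the poly(A)-binding protein, which went the other way (0.14), with adjusted p values of 0.0650 to 0.112.

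Translation factors outside the TOP class had a median of 0.07, with 19 of 24 above 0. The 1 called, Eif4g3, a scaffold of the cap-binding complex, was higher (0.41, SE 0.07, adjusted p = 0.00501). This is 4.17% of the list, against 3.81% of all rows called higher and 7.4% called in either direction. Of 31 genes of the mTORC1 pathway 1 passed, 3.23% against the same shares of all rows, and the median was 0.01. It was Tbc1d7, a subunit of the TSC complex that restrains mTORC1, which was higher (0.38, SE 0.08, adjusted p = 0.0144). None of 6 S6 kinase genes passed (lowest adjusted p = 0.514). Of the ribosomal-protein-like genes outside the rule, Rpl7l1 gave 0.22 (adjusted p = 0.0755) and Fau, which encodes a small subunit protein fused to a ubiquitin-like part, gave -0.08 (adjusted p = 0.485).

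**Figure D5:**
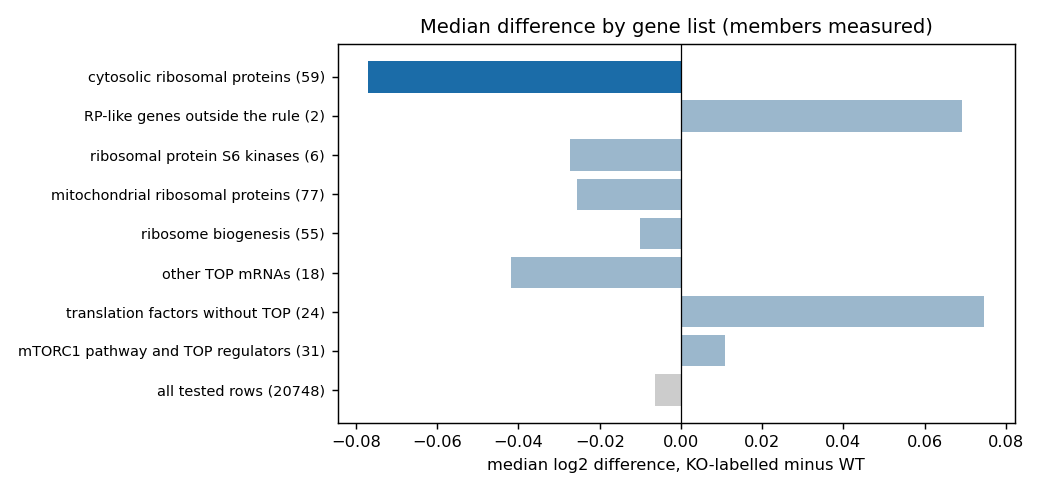
Median difference in log2 level, knockout-labelled minus WT, over the genes of each list (brightest row of each gene, number measured in brackets) and over all tested rows; bars carry no error and no test. The cytosolic ribosomal proteins have a median of -0.08, ribosome biogenesis -0.01 and translation factors outside the TOP class 0.07.

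Some markers of other cells differed between the groups, and their counts stand against 3.81% of all rows called higher and 3.59% called lower. Of 14 progenitor and fibroblast markers 7 were higher and none lower, and their summed level was 127.1 to 129.3 log2 in the knockout-labelled arrays and 121.2 to 125.2 in the WT arrays. Of 12 endothelial markers 3 were higher and none lower, with sums of 102.0 to 103.0 in the knockout-labelled and 99.3 to 100.8 in the WT arrays. Sums of the other lists overlapped: macrophage markers, 1 of 13 called and lower, had 100.3 to 104.4 in the knockout-labelled and 96.5 to 102.7 in the WT arrays. Of these 13 markers 11 were above 0, with a median of 0.12, and the 1 called, Cd14, went the other way. Of 9 T lymphocyte, 10 B lymphocyte, 10 epididymal epithelium and 2 erythroid markers none was called. Of the 15 adipocyte markers 1 was called lower and 2 higher, while 10 were below 0, with a list median of -0.07. Of 10 smooth muscle and pericyte markers 1 was called lower and 2 higher, while 6 were below 0, with a list median of -0.05. Of 8 mesothelial markers 1, Msln, was called and higher, while 6 were below 0, with a list median of -0.19. The part of these shifts in the ribosomal protein values was not tested.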

How the data were processed

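Each array row holds 1 log2 expression value per array, as deposited by the authors, and affy is the tool named in the submitters' processing notes. How background, normalization and summarization were done is not given in the sources used here. The log2 scale was read from the values, 2.09 to 13.4. No detection calls were used, so dim rows have no known floor. The platform annotation gave 1 symbol to 20748 of 23346 rows, several to 1183 and none to 1415. Limma 3.58.1 (R 4.3.3, lmFit and eBayes, no covariate) was fitted to the 20748 rows, with two-sided p-values adjusted over them by Benjamini-Hochberg, and was tested on simulated data. The members and lists were chosen with earlier results of these data known. Named were the called members, the 10 smallest p, the 5 largest differences each way, the 5 brightest and dimmest, members whose rows differ in sign, listed paralogs and, of other lists, the called genes (up to 4) or the 4 smallest p. Rpl32l and the further rows of a gene described singly were chosen after their values were seen. Replicate numbers are shared by the groups, and the main fit used no pairing. Deviations of same-numbered arrays correlated at -0.03, 0.13, -0.00 and -0.07. Arrays with unlike numbers were not compared, so these values cannot decide whether the numbers pair the arrays. No arrays held identical values. Alternatives were other normalizations, filters, row choices, limma options, a replicate block, a threshold of 0.10 and each array left out. Promoter sequences are RefSeq's.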

Additional observations from a re-analysis of the deposited data

Results flagged for a closer look

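In 5 of the 78 groups of 4 arrays tested for the named members, 1 array lay far from the other 3 by Dixon's criterion, which chance gives in about 1 group in 20. Rpl23a did so in both groups: knockout-labelled replicate 2 read 9.5637 log2, with the other 3 at 9.3555 to 9.3711, and WT replicate 1 read 9.7396, with the others at 9.4881 to 9.5077. Rpl19 was low in knockout-labelled replicate 1, at 10.58 against 10.70 to 10.72. WT replicate 3 was low for Rpl24, at 10.217 against 10.563 to 10.572, and for Rps25, at 9.2317 against 9.4429 to 9.4793.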

How the results depend on the processing

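The median difference of the members stayed below 0 under every alternative run, between -0.10 and -0.05 log2. The count of called members, 1 as reported, depended on the setting. It was 7 after quantile normalization, 7 of 55 without the dimmest 33.3% of rows, 7 with trend and robust options, 2 with a gene's rows averaged, 8 at an adjusted p under 0.10, 2 with the row at the gene itself, and 0 to 4 when each array was left out (0 without knockout-labelled replicate 4). All of these were lower except Rps13 without WT replicate 2. Over all rows the 1536 calls became 2552 at an adjusted p under 0.10 and 913 to 1418 with an array left out. The 9 calls of the related lists became 17 without the dimmest rows, 26 at 0.10 and 6 to 10 with an array left out. With the replicate number as a block, 1105 rows, 1 member (Rpsa) and 7 related genes were called.

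Of 655 values of the 39 named members under alternatives, 590 kept their direction and their side of the threshold, 3 lost a call (all Rpsa), 27 gained one and 35 turned in direction, none of these 35 with a call; the cause was not tested. After quantile normalization Rpl10l was 0.00012, Rps6 -0.0068 and Rpl28 -0.036. After median centring Rpl10l was 0.0084, Rpl3l 0.021, Rplp0 0.013 and Rpl27a 0.0043. With rows averaged Rpl27a was 0.064, Rpl38 0.27 and Rps4x 0.039. At the gene itself Rpl19 was 0.22, Rpl23a 0.016, Rpl24 0.020, Rpl6 -0.027, Rpl27a 0.15 and Rps13 -0.069. With an array left out the range was -0.15 to 0.061 for Rpl10l, -0.038 to 0.050 for Rpl3l, -0.15 to 0.021 for Rpl13, -0.038 to 0.035 for Rplp0, -0.12 to 0.075 for Rpl7a, -0.028 to 0.031 for Rpl28, -0.023 to 0.12 for Rplp2, -0.047 to 0.0082 for Rpl27a and -0.050 to 0.0051 for Rps4x.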
